A study of Mus musculus with 2 samples.

Results

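The genes described here encode the enzymes and regulators of cholesterol and fatty acid synthesis, measured in single cells of the mouse fat that surrounds the aorta (perivascular adipose tissue). All 28 genes of the list were found by symbol in the feature tables of both libraries, out of 31053 genes in all. They fall into 7 mevalonate enzymes, 11 enzymes from squalene to cholesterol, 4 genes of regulation and transport, and 6 genes of fatty acid synthesis. The 2 enzyme groups that end in cholesterol are called the sterol branch (18 genes) and the last group the fatty acid branch.

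The series has 2 libraries of primary perivascular stromal cells, 1 from young and 1 from old wild-type (WT) mice, and the labels name no allele or treatment besides age. The fat was dissected from the aorta, digested with collagenase, filtered and lysed for red blood cells, and libraries were made with 10x Genomics 3′ version 2 chemistry. The sources used here do not give the ages, the sex or the number of mice behind each library. With 1 library per age no difference has a replicate check, and age cannot be told apart from anything else that differed between the 2 preparations.

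Animal cells build cholesterol from acetyl-CoA through mevalonate, isoprenoid units, squalene and lanosterol. Fatty acids start from the same acetyl-CoA, which ATP citrate lyase makes in the cytosol. Both branches are switched on by SREBP transcription factors, made from Srebf1 and Srebf2. When membranes are rich in sterol, INSIG proteins hold the SREBP-SCAP complex in the endoplasmic reticulum. Insig1 is itself an SREBP target. SREBP-2 acts mainly on sterol genes and SREBP-1c mainly on fatty acid genes. The factors NF-Y, which binds CCAAT, and SP1, which binds GC boxes, act with SREBP on many of these promoters.

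The 250 bases before the transcription start are shown for 5 members that carry the main patterns below: 3 sterol or regulatory genes that were lower in the old library, 1 sterol gene with a log2 ratio above 0 but short of the 1.5-fold limit used below, and a fatty acid gene. They are written 5′ to 3′ on the gene's strand, from RefSeq on GRCm38.p6. Capitals mark CCAAT or its reverse complement ATTGG, and TCACNCCAC, a core of the sterol regulatory element, all searched on both strands. The windows are chr13:119690101-119690350 on the plus strand for Hmgcs1, chr8:64733579-64733828 on the minus strand for Msmo1, chr5:28071162-28071411 on the plus strand for Insig1, chr1:169969206-169969455 on the minus strand for Hsd17b7 and chr11:120824548-120824797 on the minus strand for Fasn.
Hmgcs1: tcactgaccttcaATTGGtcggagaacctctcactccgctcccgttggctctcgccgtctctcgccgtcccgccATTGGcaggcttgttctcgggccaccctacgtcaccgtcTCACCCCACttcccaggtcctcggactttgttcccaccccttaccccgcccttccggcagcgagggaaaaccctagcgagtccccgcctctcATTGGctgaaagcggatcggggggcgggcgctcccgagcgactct
Msmo1: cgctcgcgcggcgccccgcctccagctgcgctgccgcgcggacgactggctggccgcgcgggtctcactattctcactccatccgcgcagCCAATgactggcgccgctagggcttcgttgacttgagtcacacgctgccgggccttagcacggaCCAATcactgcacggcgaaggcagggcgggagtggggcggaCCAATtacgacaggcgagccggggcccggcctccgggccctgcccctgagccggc
Insig1: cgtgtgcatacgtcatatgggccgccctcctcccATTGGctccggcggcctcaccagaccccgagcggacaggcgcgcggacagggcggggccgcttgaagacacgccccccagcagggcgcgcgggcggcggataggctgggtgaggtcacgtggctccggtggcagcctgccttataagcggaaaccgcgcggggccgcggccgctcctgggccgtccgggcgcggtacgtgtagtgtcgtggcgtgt
Hsd17b7: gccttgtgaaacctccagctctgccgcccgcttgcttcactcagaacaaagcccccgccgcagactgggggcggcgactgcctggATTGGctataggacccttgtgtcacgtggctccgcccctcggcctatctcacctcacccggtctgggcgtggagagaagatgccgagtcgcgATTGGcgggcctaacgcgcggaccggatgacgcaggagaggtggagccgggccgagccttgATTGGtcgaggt
Fasn: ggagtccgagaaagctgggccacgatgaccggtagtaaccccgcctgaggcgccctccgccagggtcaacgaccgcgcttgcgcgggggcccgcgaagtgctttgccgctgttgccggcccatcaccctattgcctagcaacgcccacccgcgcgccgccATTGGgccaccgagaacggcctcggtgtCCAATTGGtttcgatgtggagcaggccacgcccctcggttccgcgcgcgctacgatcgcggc

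The promoter table held 22 of the 28 members, with 27 windows, and lacked Fdps, Fdft1, Sqle, Stard4, Scd1 and Scd2. The only Acaca window (chr11:84195188-84195437) lies inside the gene, which starts at chr11:84129672 in GENCODE vM21. The bases before that start were not searched, so the fatty acid counts below rest on few promoters. CCAAT was present on either strand in 14 of 15 sterol genes, 1 of 4 fatty acid genes (Fasn) and 3 of 3 regulators, against 37.5% of the 27025 genes in the table with such a window. Some genes have several windows: 14 of 18 sterol windows held CCAAT, against 33.8% of all 32851. GGGCGG, a GC box, was present in the same numbers of genes, 14 of 15, 1 of 4 and 3 of 3, against 35.4% of genes. It was in 15 of 18 sterol windows, against 32.7% of all windows and 55.4% of the windows of genes measured in mesenchymal cells. CACGTG, an E-box, was present in 3 of 15 sterol genes against 6.86% of genes. TCACNCCAC was present in Hmgcs1 alone among the members (as TCACCCCAC, 137 bases before the start), against 1.22% of genes. Hsd17b7 had CCAAT at 165, 73 and 12 bases, as many copies as Msmo1 (160, 96 and 55 bases). These matches describe the letters only, and binding was not measured.

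The matrices held 13104 barcodes with 130398999 unique molecular identifiers (UMIs, single counted mRNA molecules) in the young library, and 14636 with 147166475 in the old one. After filters on detected genes, mitochondrial share and doublet score, 11453 young and 12207 old cells were used, with medians of 8916 and 9230 UMIs. Cells were sorted into types by marker genes, with limits set after the marker distributions had been seen. The mesenchymal gate (at least 3 of 7 markers such as Col1a1, Dcn and Pdgfra, and fewer than 3 of any other type) held 10445 young and 10225 old cells. Mesothelial cells numbered 344 and 61, Schwann cells 61 and 83, blood endothelial cells 34 and 1118, macrophages 1 and 105 and adipocytes 8 and 116. Many cells of the small gates also held mesenchymal RNA. At least 3 mesenchymal markers were detected in 98.5% of young and 98.4% of old mesothelial cells. The share was 67.2% of young and 61.4% of old Schwann cells, and 35.3% of young and 70.0% of old endothelial cells. Among old adipocytes it was 48.3%. In total 275 barcode sequences occurred in both libraries.

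Levels are UMIs of a gene per 1000000 UMIs of a gate (CPM), with exact Poisson 95% intervals that cover counting error only. A gene was counted as higher or lower where its CPM differed at least 1.5-fold with at least 20 UMIs over both groups. A gene can therefore pass through the larger group alone, on few UMIs in the smaller. Where a gate of either side held under 500 cells, the interval had also to be clear of a log2 ratio of 0. No p-value is given, because cells are not replicates.

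Within mesenchymal cells the sterol branch was lower in the old library and the fatty acid branch was level. Summed over 18 genes, the sterol branch stood at 492 CPM (95% interval 488 to 496) in the young library and 359 CPM (356 to 363) in the old, a log2(old/young) of −0.45 (−0.47 to −0.43). The 6 fatty acid genes summed to 333 CPM (329 to 336) and 333 CPM (330 to 337), a log2 ratio of 0.00 (−0.02 to 0.02), or −0.12 with the median-of-ratios scaling below. Insig1, the sterol-sensing brake on SREBP, had the largest difference of the 28 genes. In all, 10 members were at least 1.5-fold lower, where 12.4% of 15164 measured genes were, and 0 were higher, where 19.7% were. The median log2 ratio was −0.56 over the sterol branch and 0.13 over the fatty acid branch, beside 0.13 over all measured genes. With scaling by the median of ratios, which moves every log2 ratio by −0.12, 15 members were lower and 0 higher, beside 15.3% and 15.4% of all genes.

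**Figure D1:**
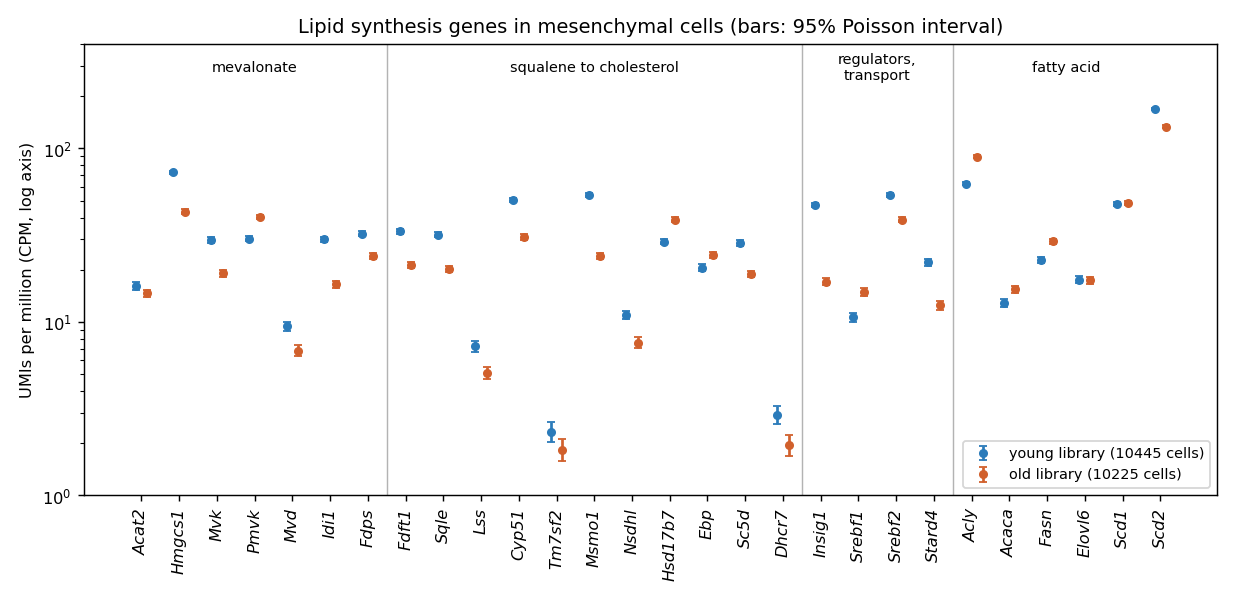
Level of each of the 28 genes in mesenchymal cells of the young (blue) and old (orange) library, in CPM on a log axis, ordered by role; bars are 95% Poisson intervals over UMIs. Blue lies above orange for 15 of the 18 sterol genes, and Acly, Acaca and Fasn lie the other way.

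Of the mevalonate enzymes 6 of 7 were at a lower level in the old library, 3 of them past 1.5-fold. Hmgcs1, which makes HMG-CoA, stood at 73.0 CPM (71.3 to 74.6) in the young library and 43.3 (42.0 to 44.5) in the old, a log2 ratio of −0.75. Idi1, which isomerises isopentenyl diphosphate, stood at 30.0 and 16.5 CPM, a log2 ratio of −0.86. Mvk, the mevalonate kinase, stood at 29.7 and 19.0 CPM (−0.64). Short of 1.5-fold were Mvd, the diphosphomevalonate decarboxylase (9.45 and 6.81 CPM, log2 −0.47), and Fdps, farnesyl diphosphate synthase (32.2 and 24.0 CPM, −0.42). Acat2, the cytosolic thiolase that precedes Hmgcs1, was closest to equal at 16.1 and 14.6 CPM (−0.14). The exception was Pmvk, the phosphomevalonate kinase between Mvk and Mvd, at 30.2 CPM in the young library and 40.3 in the old (log2 0.41, 0.35 to 0.48). This pooled ratio was not shared evenly by the mesenchymal subtype gates described below. Pmvk was nearly level in cells of no subtype gate (29.7 and 32.2 CPM, log2 0.12, 0.007 to 0.22). Its ratio was 0.30 in cycling, 0.83 in adipogenic and 1.85 in progenitor cells. The progenitor gate held 1721 of the 4321 Pmvk UMIs of old mesenchymal cells.

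The enzymes from squalene to cholesterol showed the same split, 9 of 11 at a lower level and 5 of them past 1.5-fold. Msmo1, the methylsterol oxidase that takes the C4 methyl groups from lanosterol products, stood at 53.9 CPM (52.5 to 55.3) in the young library and 24.0 (23.1 to 24.96) in the old, 2.24-fold lower. Cyp51, the lanosterol 14-alpha-demethylase, stood at 50.7 and 30.9 CPM (log2 −0.72). Sqle, the squalene epoxidase and a known control point, stood at 31.9 and 20.1 CPM (−0.66). Fdft1, squalene synthase, followed at 33.3 and 21.3 CPM (−0.65), and Sc5d, the C5 desaturase, at 28.6 and 18.9 CPM (−0.59, 1.51-fold lower).

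Just short of the 1.5-fold limit lay Dhcr7, the last reductase (2.92 and 1.95 CPM, −0.58), Nsdhl, which works with Msmo1 on C4 demethylation (10.96 and 7.60 CPM, −0.53), and Lss, the synthase of lanosterol (7.24 and 5.09 CPM, −0.51). Tm7sf2, a sterol C14 reductase, was low in both libraries at 2.33 and 1.84 CPM (−0.34, −0.62 to −0.06). The exceptions here were Hsd17b7, the 3-ketosteroid reductase of C4 demethylation, at 29.1 and 38.8 CPM (0.42, 0.35 to 0.48), and Ebp, the sterol isomerase, at 20.6 and 24.3 CPM (0.24, 0.16 to 0.32). Msmo1, Nsdhl and Hsd17b7 carry out one demethylation sequence, and their ratios ran from −1.17 to 0.42.

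Some members share their 3′ end, where this chemistry counts, with another gene in GENCODE vM21: Mvd with Gm20388, Fdps with Gm43738 on the same strand, Fdft1 with Ctsb (774 bases), Lss with 4930483K19Rik, Cyp51 with Akap9 (166 bases) and Srebf1 with Rai1 (109 bases). The sources used here do not give whether counting used strand, so the values of these 6 genes are less certain. Hmgcs1, Msmo1, Idi1, Sqle, Insig1 and Stard4 have no such overlap at the 3′ end.

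Of the regulators, Insig1 stood at 47.4 CPM (46.1 to 48.7) in the young library and 17.0 (16.3 to 17.8) in the old, 2.78-fold lower (log2 −1.48). Stard4, a cytosolic sterol carrier, stood at 22.02 and 12.5 CPM (−0.82). Srebf2 was short of 1.5-fold at 54.0 and 38.9 CPM (−0.47). Srebf1 went the other way, at 10.6 and 14.9 CPM (0.48, 0.37 to 0.60), and the 3′ tags do not tell its 1a and 1c transcripts apart.

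None of the 6 fatty acid genes differed 1.5-fold in mesenchymal cells. Acly, the citrate lyase that supplies acetyl-CoA to both branches, stood at 62.8 CPM in the young library and 89.4 in the old (log2 0.51, 0.46 to 0.56). Fasn, the fatty acid synthase, stood at 22.7 and 29.1 CPM (0.36), and Acaca, acetyl-CoA carboxylase, at 12.9 and 15.4 CPM (0.26). Scd2, a stearoyl-CoA desaturase, was lower at 169 and 134 CPM (−0.34, −0.37 to −0.31). Scd1, its paralog and the main desaturase of fat and liver, stood at 48.1 and 48.3 CPM (0.01, −0.05 to 0.06), and the elongase Elovl6 at 17.5 and 17.4 CPM (−0.01, −0.11 to 0.08). The level sum therefore held 3 genes above, 1 below and 2 at equal levels, and without Scd2 the branch was higher in the old library by a log2 ratio of 0.28 (0.25 to 0.31). Scd1 and Scd2 are close paralogs on chromosome 19 (chr19:44394455-44407879 on the minus and chr19:44293674-44306864 on the plus strand of GRCm38), and reads shared between them would not show in these counts.

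Other genes of the pathway, from lists outside the 28 members, are given for context with the same background of 12.4% lower and 19.7% higher. Of 6 genes of SREBP processing 1 was higher and 0 lower: Insig2, the INSIG gene that is not driven by SREBP (39.6 and 63.0 CPM, 0.67). The INSIG pair thus lay on opposite sides, and Scap, the escort of SREBP, stood at 14.4 and 18.5 CPM (0.36).

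Of 14 genes of sterol efflux and LXR, the oxysterol-sensing receptor, 6 were higher and 0 lower. They included the lipid exporter Abca1 (15.1 and 30.7 CPM, log2 1.02), the cholesterol 25-hydroxylase Ch25h (26.1 and 57.1 CPM, 1.13), and Apoe (17.5 and 50.9 CPM, 1.54). Macrophages hold much RNA of 2 of these, with 473 CPM of Abca1 and 543 CPM of Apoe in the old library, and endothelial cells hold 542 CPM of Apoe. The 9 macrophage markers summed to 15.3 CPM in young and 47.4 CPM in old mesenchymal cells (from 0 to 12.6 CPM a gene in the young, 2 of them at 0, and from 0.196 to 24.0 in the old). The 9 endothelial markers summed to 28.8 CPM (0.0381 to 13.3 a gene) and 46.8 CPM (0.662 to 18.3 a gene). Their part in the efflux values was not tested. Of 18 measured genes of elongation, desaturation and glycerolipid synthesis 4 were higher, among them the triglyceride synthase Dgat1 (8.01 and 45.0 CPM, 2.49) and the acyl-CoA ligase Acsl4 (47.0 and 178 CPM, 1.92), and 1 was lower, the desaturase Fads1 (41.8 and 27.5 CPM, −0.60).

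The sterol difference was present in each of 5 mesenchymal gates, which may share cells: cycling (2090 young and 2034 old), contractile (2379 and 1749), adipogenic (944 and 1668), progenitor (61 and 1749) and cells of no such gate (5955 and 4821). In cycling cells the summed sterol branch stood at 492 and 315 CPM, a log2 ratio of −0.65 (−0.68 to −0.61), and 12 of its genes were lower and 0 higher, beside 10.9% and 16.9% of all genes. In contractile cells it stood at 520 and 346 CPM (−0.59, −0.63 to −0.55), with 9 genes lower and 0 higher beside 10.6% and 15.8%. In cells of no subtype gate it stood at 483 and 367 CPM (−0.40, −0.43 to −0.37), with 5 lower and 0 higher beside 12.4% and 19.5%. The ratio was thus furthest from 0 in cycling cells, which also held more UMIs per cell than those of no subtype gate (medians below). Adipogenic cells stood at 480 and 381 CPM (−0.33, −0.39 to −0.28), with 6 lower beside 10.4%, and Pmvk higher beside 20.1%. The progenitor gate, which rests on 61 young cells, stood at 440 and 385 CPM (−0.19, −0.34 to −0.04).

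Insig1 was lower in the old library in each of the 5 gates. It stood at 41.7 and 13.2 CPM in cycling cells, 43.9 and 14.6 in contractile cells, 42.4 and 17.9 in adipogenic cells, 33.6 and 18.02 in progenitor cells and 51.4 and 18.6 in cells of no subtype gate. Msmo1 followed the same order of libraries, from 52.3 and 19.8 CPM in cycling cells to 52.2 and 26.3 in cells of no subtype gate. Sqle, one of the control points, was 2.25-fold lower in cycling cells (35.6 and 15.8 CPM) and 1.30-fold lower in adipogenic cells (31.4 and 24.2 CPM).

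The fatty acid branch did not keep one direction across the gates. It was lower in old cycling cells by a log2 ratio of −0.19 (306 and 268 CPM), in contractile cells by −0.22 (319 and 274 CPM) and in adipogenic cells by −0.28 (400 and 329 CPM). In cells of no subtype gate it was higher by 0.13 (336 and 368 CPM), and in the progenitor gate the interval of 0.12 reached from −0.05 to 0.29. The gates also differed in depth, with median UMIs of 12517.5 and 13010 in cycling and 10874 and 12566 in contractile cells. Medians were 9252 and 10275 in adipogenic, 13063 and 12052 in progenitor and 7900 and 7657 in cells of no subtype gate. The ratios of both branches varied with a cell's UMI total, as given below. The part of depth in the differences between gates was not tested for either branch. In adipogenic cells Scd1 stood at 72.1 and 44.8 CPM (1.61-fold lower) and Scd2 at 200 and 130 CPM (1.53-fold lower), while Acly stood at 76.8 and 85.4 CPM. Most adipogenic cells lay at the limit of the gate, with 876 of 944 young and 1374 of 1668 old cells holding just the required 3 markers.

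**Figure D2:**
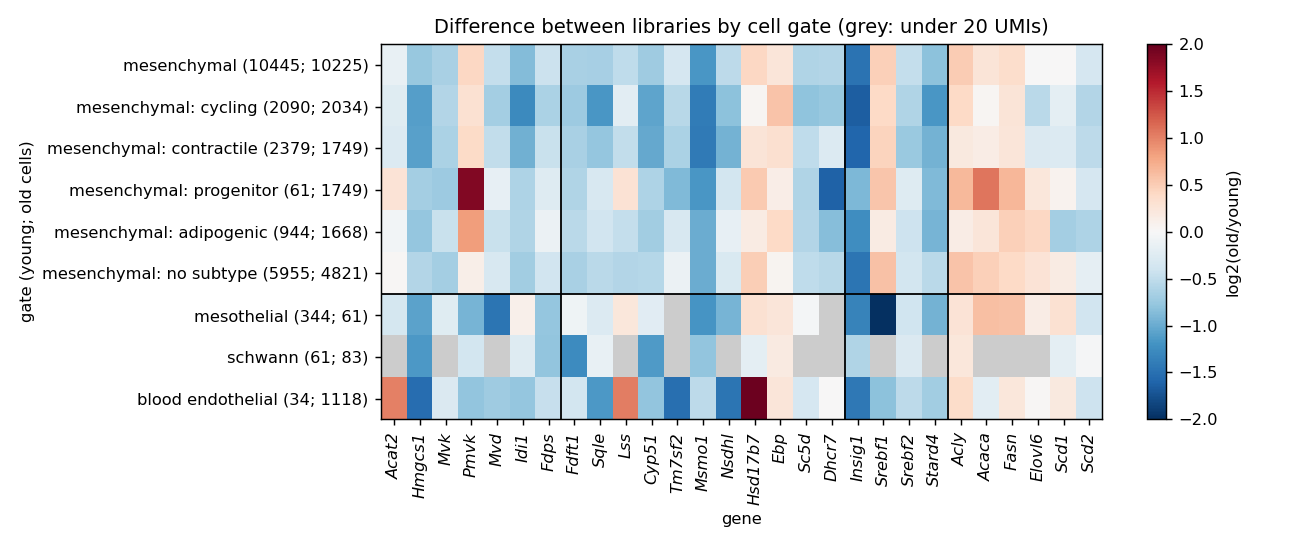
Log2(old/young) of each gene (columns, ordered by role) in 9 cell gates (rows, with the young and old cell numbers); blue is lower and red higher in the old library, and grey has under 20 UMIs. Insig1, Hmgcs1 and Msmo1 are blue in each row, Hsd17b7 and Ebp are pale to red in the mesenchymal rows, and the Pmvk column is reddest in the progenitor row.

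Pmvk stood apart in the old progenitor gate, defined by Pi16, Dpp4 and 3 further genes. It stood at 72.8 CPM (69.4 to 76.3) there and at 32.2 CPM in old cells of no subtype gate, 2.26-fold higher, the one member past 1.5-fold in that comparison, beside 6.58% of genes higher and 4.66% lower. In young progenitor cells it stood at 20.1 CPM on 18 UMIs, beside 29.7 CPM in young cells of no subtype gate. In that young comparison 0 members were higher, beside 4.76% of genes, and 1 was lower, Insig1 (33.6 and 51.4 CPM), beside 1.23%. The old-to-young ratio of Pmvk in the gate was 3.61-fold (log2 1.85, 1.19 to 2.61), beside 11.1% of genes higher. Acly was the other member higher there, at 70.5 CPM in young and 110 in old progenitor cells (1.56-fold, log2 0.64, 0.28 to 1.03). In the other direction Hmgcs1, Mvk, Cyp51, Msmo1, Insig1 and Stard4 passed in the gate, beside 6.74%. Of 1749 old progenitor cells 1394 held just the required 3 markers, as did 60 of the 61 young cells.

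Within the old library the summed sterol branch ran from 315 CPM in cycling to 385 CPM in progenitor cells, and in the young from 440 CPM in progenitor to 520 CPM in contractile cells. In the old library cycling cells stood 1.60-fold lower than cells of no subtype gate in Hmgcs1 (30.6 and 48.8 CPM), 1.79-fold lower in Hsd17b7 (23.9 and 42.8 CPM), 1.64-fold lower in Scd1 (33.5 and 55.0 CPM) and 1.53-fold lower in Scd2 (100 and 154 CPM), with 11.4% of genes lower and 10.1% higher. In the young library 0 members were lower in cycling cells, where 9.66% of genes were, and 1 was higher, Stard4 (30.1 and 18.7 CPM), where 10.4% were. Scd1 was the one member lower in old contractile cells, at 35.9 CPM, beside 8.85% of genes lower and 7.19% higher, and in young contractile cells 0 members passed in either direction, beside 6.56% lower and 6.51% higher. In 102 old pericyte-gated cells Sqle was higher at 32.0 CPM, beside 5.13% of genes. Acat2 (6.21 CPM), Hsd17b7 (25.7 CPM), Acly (47.1 CPM) and Scd1 (36.4 CPM) were lower there, beside 3.44%. The adipogenic gate had 0 members past 1.5-fold in either library, beside 5.68% higher and 4.12% lower genes in the old and 6.64% and 7.05% in the young.

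Outside the mesenchymal gate the sterol branch was also at a lower level in old mesothelial, Schwann and blood endothelial cells. The adipocyte gate, on 8 young cells, had the other order (341 and 659 CPM) and is described below. In mesothelial cells, the lining of serous surfaces, the branch stood at 486 and 371 CPM (log2 −0.39, −0.61 to −0.18). As these 3 gates are small, each gene counted has an interval clear of 0. In mesothelial cells Hmgcs1 (71.8 and 34.2 CPM), Msmo1 (56.9 and 25.2 CPM) and Insig1 (31.7 and 12.6 CPM) were lower, beside 5.78% of genes, and 0 members were higher, beside 6.88%. In Schwann cells, the glia of peripheral nerve, the branch stood at 594 and 408 CPM (−0.54, −0.83 to −0.26), with Hmgcs1 (72.3 and 32.8 CPM) and Fdft1 (50.4 and 21.1 CPM) lower beside 5.53% and 0 higher beside 8.59%. In blood endothelial cells it stood at 534 and 360 CPM (−0.57, −0.79 to −0.34), on 34 young cells. Hmgcs1 (94.8 and 33.1 CPM), Sqle (34.8 and 15.8 CPM), Nsdhl (22.1 and 8.04 CPM) and Insig1 (82.2 and 30.4 CPM) were lower there, beside 4.95%, and 0 were higher, beside 2.9%. Hmgcs1 was thus lower in each of the 3 gates. The summed fatty acid branch gave intervals that span 0 in all 3: −0.19 to 0.36 in mesothelial, −0.43 to 0.26 in Schwann and −0.38 to 0.35 in endothelial cells.

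These gates are not free of each other. Col1a1, a fibroblast collagen gene, stood at 2007 CPM in young and 1674 in old mesenchymal cells. It stood at 1211 and 799 CPM in mesothelial, 916 and 1014 in Schwann and 171 and 197 in endothelial cells. Pdgfra, another mesenchymal marker, stood at 150 and 194 CPM in mesothelial cells, beside 103 and 179 in mesenchymal cells. Its levels were 8.77 and 9.37 CPM in Schwann and 3.16 and 21.7 in endothelial cells. At least 3 mesenchymal markers were detected in 35.3% of young and 70.0% of old endothelial cells. The share of the mesenchymal difference that reached the Schwann, mesothelial and endothelial gates through such RNA was not tested.

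Adipocytes, which make and store fat, had the highest fatty acid branch of the gates in either library. In 116 old adipocytes it summed to 2133 CPM (2032 to 2239) beside 333 CPM in old mesenchymal cells, a log2 ratio of 2.68 (2.61 to 2.75). Scd1 made most of it, at 1585 CPM (1497 to 1676) beside 48.3, 32.8-fold higher, and without Scd1 the other 5 genes stood at 549 and 285 CPM, a log2 ratio of 0.95 (0.80 to 1.08). Acaca (88.2 and 15.4 CPM) was 5.72-fold and Fasn (160 and 29.1 CPM) 5.49-fold higher. Acly (113 and 89.4 CPM), Elovl6 (22.1 and 17.4 CPM) and Scd2 (166 and 134 CPM) lay within 1.5-fold of mesenchymal cells. The contrast between the desaturase paralogs was therefore large: Scd1 differed 32.8-fold and Scd2 1.24-fold.

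**Figure D3:**
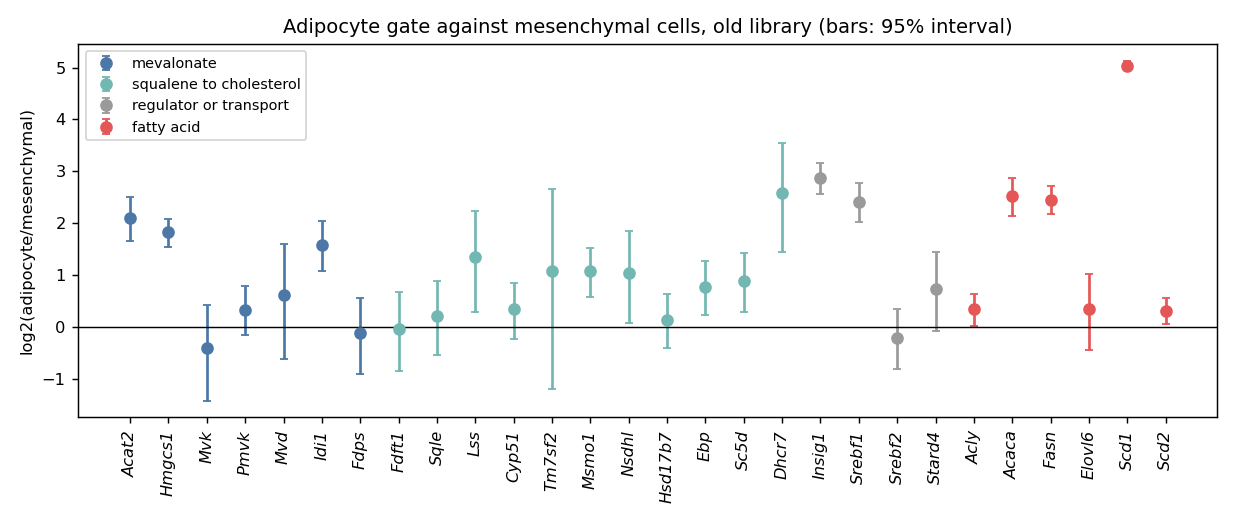
Log2 ratio of each gene between 116 adipocytes and 10225 mesenchymal cells of the old library, coloured by role, with 95% conditional Poisson intervals over UMIs. Scd1 lies at 5.04, Insig1 at 2.87, Acaca at 2.52, Fasn at 2.46 and Srebf1 at 2.41, while Fdft1, Sqle and Srebf2 have intervals that span 0.

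The sterol branch was also higher in old adipocytes, at 659 CPM (603 to 719) beside 359 CPM, a log2 ratio of 0.88 (0.75 to 1.00). In all 14 members were higher and 0 were lower, where 12.2% of genes were higher and 12.2% lower. In the sterol branch these were Acat2 (62.3 and 14.6 CPM), Hmgcs1 (153 and 43.3 CPM), Idi1 (49.3 and 16.5 CPM), Msmo1 (50.6 and 24.0 CPM), Ebp, Sc5d, Lss, Nsdhl and Dhcr7, the last 3 on 9 to 12 UMIs. The 7 mevalonate enzymes summed to 362 and 164 CPM (1.14) and the 11 later enzymes to 297 and 195 CPM (0.61). Hmgcs1 and Acat2 made much of the mevalonate sum, and the larger ratio was not shared by all its genes. Mvk (14.3 and 19.0 CPM) and Fdps (22.1 and 24.0 CPM) were not higher. Fdft1 (20.8 and 21.3 CPM) and Sqle (23.4 and 20.1 CPM), the first steps committed to sterol, were nearly level, with intervals of −0.85 to 0.67 and −0.54 to 0.88. Insig1 stood at 125 CPM beside 17.0, 7.31-fold higher, and Srebf1 at 79.2 beside 14.9, 5.33-fold higher. Srebf2 was not higher, at 33.7 and 38.9 CPM.

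In the young library the 8 cells of the adipocyte gate gave 8005 CPM of Scd1 on 844 UMIs and 341 CPM (239 to 473) of the sterol branch on 36 UMIs, the latter below the 492 CPM of young mesenchymal cells. These 8 cells were too few for a comparison between ages.

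**Figure D4:**
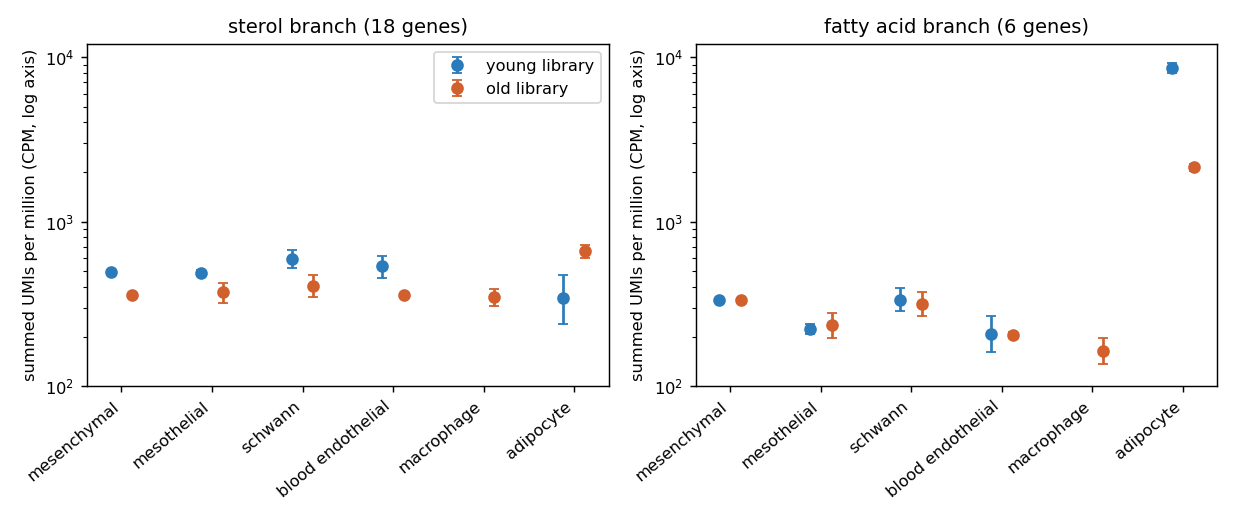
Summed CPM of the sterol branch (left) and the fatty acid branch (right), on a log axis, in 6 cell types of the young (blue) and old (orange) library, with 95% Poisson intervals. The sterol branch is lower in the old library in each of the first 4 types, and the fatty acid branch of adipocytes, at 8574 and 2133 CPM, lies above all other points.

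Adipocyte marker RNA in the mesenchymal gate was low and higher in the old library. The low level is in part set by the gate, which admits only cells with fewer than 3 adipocyte markers. The 8 adipocyte markers summed to 6.51 CPM (0 to 3.82 CPM a gene) in young and 11.6 CPM (0 to 2.94 CPM a gene) in old mesenchymal cells, with 1 of the 8 at 0 in each, beside 3558 CPM in old adipocytes. Adipoq, the adiponectin gene, stood at 0.219 and 2.83 CPM, and at 1501 CPM in old adipocytes. Old adipocytes held 1.06 Scd1 UMIs for each Adipoq UMI, so that the Adipoq of the old mesenchymal gate would bring 2.99 of its 48.3 CPM of Scd1 and 0.301 of its 29.1 CPM of Fasn. Of Insig1 it would bring 0.235 of 17.0 CPM. These estimates rest on 1 marker gene and on the ratios of old adipocytes. In the young library the adipocyte gate held 844 Scd1 UMIs on 41 Adipoq UMIs, a far higher ratio. The part of adipocyte RNA in the mesenchymal values was not tested.

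Endothelial cells, macrophages and mesothelial cells differed from mesenchymal cells more in the summed fatty acid than in the summed sterol branch. Old blood endothelial cells had the same sterol sum (360 and 359 CPM, log2 0.00) and a lower fatty acid sum (205 and 333 CPM, −0.70, −0.76 to −0.64). Stard4 was 3.14-fold higher in them (39.1 and 12.5 CPM). Acat2, Mvd, Idi1, Fdps, Msmo1, Dhcr7 and Insig1 were also higher, beside 16% of genes. Lower were Scd1 (18.1 and 48.3 CPM), Scd2 (63.8 and 134 CPM), Acly, Cyp51 and Hsd17b7, beside 29%. Macrophages had a fatty acid sum of 164 CPM (log2 −1.02, −1.29 to −0.76), with Fasn at 8.15, Scd1 at 14.9 and Scd2 at 46.2 CPM. Pmvk and Hsd17b7 were lower in them as well, beside 18.5% of genes, and Mvd, Msmo1 and Insig1 (42.1 CPM) were higher, beside 11.5%.

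Young mesothelial cells had a fatty acid sum of 221 CPM beside 333 in mesenchymal cells (log2 −0.59, −0.69 to −0.49), with Scd1 (27.6 CPM), Scd2 (93.5 CPM) and Mvk (17.1 CPM) lower beside 11.7% of genes and Mvd (14.9 CPM) higher beside 13.9%. In old mesothelial cells Scd2 was again lower (71.97 CPM), with Pmvk and Srebf1, beside 8.62%, and Tm7sf2 was higher, beside 8.03%. Srebf1 rested there on 1 mesothelial UMI (1.80 CPM), Tm7sf2 on 4 (7.20 CPM) and Pmvk on 10 (17.99 CPM). Schwann cells, whose myelin is rich in cholesterol, held Msmo1 at 81.1 CPM beside 53.9 in the young library and 46.8 beside 24.0 in the old, and Ebp at 39.5 beside 20.6 and 44.5 beside 24.3. In the young library Pmvk, Fdps and Dhcr7 were higher too, beside 13.9% of genes, and Mvk was lower, beside 6.84%. Dhcr7 and Mvk rested on 6 Schwann UMIs each. In the old library Sqle was higher too, beside 12.4%, and Cyp51, Acly, Fasn and Elovl6 were lower, beside 7.14%. Of these, Elovl6 rested on 1 Schwann UMI, Fasn on 5 and Cyp51 on 6.

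The ratio of the summed sterol to the summed fatty acid branch within a gate needs no scaling to the total. In mesenchymal cells it was 1.48 (1.46 to 1.499) in the young library and 1.08 (1.06 to 1.09) in the old. It was 2.20 (2.02 to 2.39) and 1.57 (1.26 to 1.97) in mesothelial cells. In Schwann cells it was 1.77 (1.45 to 2.17) and 1.29 (1.02 to 1.63), with intervals that overlap. Endothelial cells stood at 2.56 (1.92 to 3.46) and 1.75 (1.67 to 1.84). Each of these 4 gates had the lower ratio in the old library. Old macrophages stood at 2.11 (1.69 to 2.64) and old adipocytes at 0.309 (0.279 to 0.342).

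Cells were then compared one by one within the mesenchymal gate, after thinning each to 4000 UMIs, which left out 684 young and 351 old cells. The mean number of sterol branch UMIs per cell was 1.97 in 9761 young and 1.45 in 9874 old cells, and the median was 2 and 1. The middle 50% of cells held 1 to 3 UMIs in the young library and 0 to 2 in the old. The variance was 1.65 times the mean in the young library and 1.81 times in the old, where counting alone would give 1. For the fatty acid branch the means were 1.31 and 1.39 and the variance 1.32 and 1.40 times the mean.

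**Figure D5:**
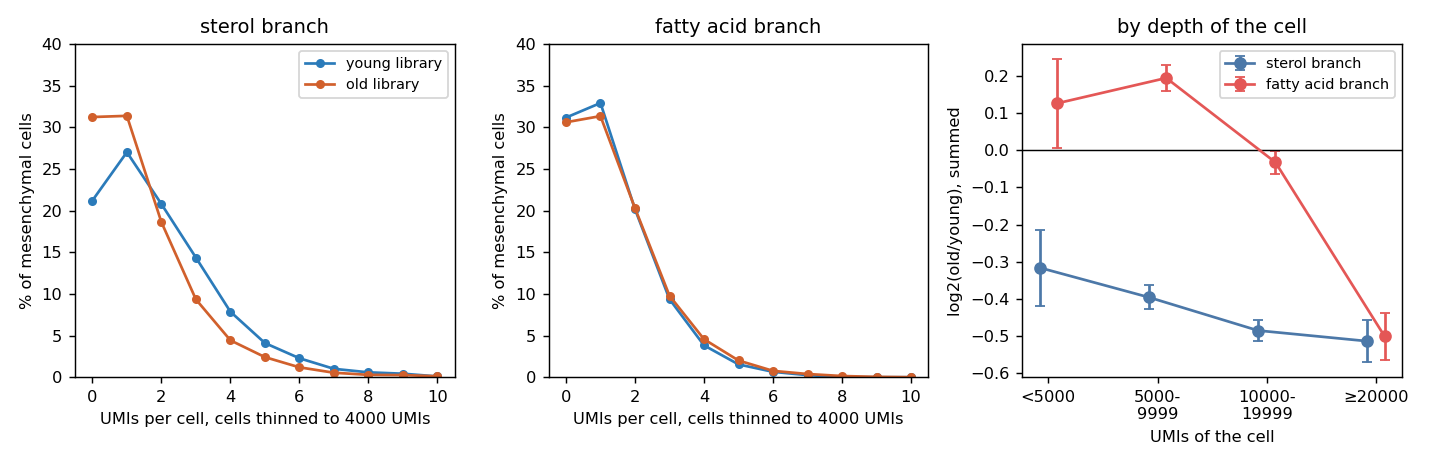
Left and middle, share of mesenchymal cells by their number of sterol or fatty acid branch UMIs after thinning to 4000 UMIs, in the young (blue) and old (orange) library; right, log2(old/young) of the summed branches by the cell's UMI total, with 95% conditional Poisson intervals. Cells with 0 sterol UMIs made up 21.2% of young and 31.2% of old cells (7.71% and 11.3% before thinning).

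Cells were also grouped by whether they held a given sterol gene. Cells with at least 1 UMI of Hmgcs1 after thinning held more UMIs of the other sterol genes than cells without, by a log2 ratio of 0.45 in the young library and 0.63 in the old. Taken gene by gene, the ratio was above 0 for 15 of 15 measured sterol genes in the young library and 13 of 14 in the old. The median over all genes was itself above 0, at 0.02 in each library, so a ratio above 0 was common. The sterol medians were 0.42 and 0.62. Over all genes the 5th to 95th percentiles ran from −0.22 to 0.25 in the young and −0.28 to 0.32 in the old library. With Idi1 in place of Hmgcs1 the ratios were 0.62 and 0.82, and with Sqle 0.48 and 0.66. Grouping cells by Insig1, the feedback gene, gave 0.41 and 0.64. Fatty acid genes followed less closely, at 0.32 and 0.35 for Hmgcs1, 0.23 and 0.33 for Idi1 and 0.14 and 0.12 for Sqle. Grouping cells by Scd2 gave 0.32 and 0.33 for the sterol branch and 0.28 and 0.37 for the other fatty acid genes, and grouping by Acly gave 0.14 and 0.17, and 0.21 and 0.28. The 9761 young and 9874 old cells gave a correlation of 0.23 and 0.21 between mevalonate and later sterol UMIs and of 0.16 and 0.14 between the sterol and the fatty acid branch. These are weak correlations in sparse counts, and cells of a library share its preparation.

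The fatty acid difference depended on the size of the cell's library and the sterol difference did not change direction. In cells of under 5000, from 5000 to under 10000, from 10000 to under 20000 and of 20000 or more UMIs, the log2 ratio of the sterol branch was −0.32, −0.40, −0.49 and −0.51. The fatty acid branch gave 0.13, 0.20, −0.03 and −0.50 over the same ranges. The last range held 471 young and 549 old cells, with 371 and 262 CPM. How many doublets remain among these cells is not known.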

How the data were processed

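Per the labels' protocols, libraries were made with the 10x Genomics 3′ version 2 kit. The deposited values are unnormalized UMI counts per gene and barcode, written by Cell Ranger 3.0.1 per the file headers, with the mm10 build per the submitters' processing notes. The sources used here do not give the annotation release, the strand setting or the rule for keeping barcodes. A cell was kept if it had 500 or more detected genes and no more than 10% mitochondrial UMIs. The automatic Scrublet threshold (scanpy 1.11.5) found 0 doublets in both libraries and did not work, so the highest scores were removed, 0.8% per 1000 cells (1302 young and 1504 old cells).

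Type gates needed at least 3 listed markers and 5 marker UMIs per 10000, and 1 type only. Subtype gates needed 5 of 9 cycling, 3 of 7 pericyte, 6 of 8 contractile, 3 of 5 progenitor or 3 of 5 adipogenic markers. UMIs were summed per library and gate, and ratios carry exact conditional Poisson intervals (scipy 1.17.1). Gates with at least 50 cells in both libraries were compared. Endothelial cells, with 34 in the young library, were an exception. Intervals and levels cover counting error only. A count of 0 was set to 3 for ratios. All 28 members could be named, and of each other pathway list the 5 genes with the largest ratio and at least 100 UMIs. Results for some other pathway genes are not reported here. The members and all lists were chosen with earlier results of these data known. The 1.5-fold calls were run on counts simulated from the young mesenchymal sums with counting error only. That run does not cover variation between preparations or the interval rule of small gates. Promoters are RefSeq's on GRCm38.p6.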

Additional observations from a re-analysis of the deposited data

How the results depend on the processing

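No paired analysis was possible because each age has 1 library and no replicate numbers, and for the same reason no library could be left out in turn. The summed sterol branch in mesenchymal cells (log2 −0.45) was −0.58 with median-of-ratios factors, −0.40 in cells of no subtype gate and −0.41 without Hmgcs1. The fatty acid branch (0.00) was −0.12 with median-of-ratios factors, −0.021 with 1 more marker required per gate, 0.10 with cells thinned to 1000 UMIs, 0.13 in cells of no subtype gate, 0.28 without Scd2 and 0.066 without cells of 20000 or more UMIs. The count of lower members (10) was 6 in cells of no subtype gate, 15 with median-of-ratios factors and between 8 and 11 otherwise, and the count of higher members was 0 under every alternative run. For adipocytes over mesenchymal cells, the sterol branch (0.88) was 0.68 without Hmgcs1, and the fatty acid branch (2.68) was 2.87 with the looser cell filter (200 genes, 20% mitochondrial), 2.53 without doublet removal, 2.79 with 1 more marker, 3.30 without Scd2 and 0.95 without Scd1. Beyond the construction of each alternative, the cause was not tested. The other 33 values stayed within their interval or within 1.5 times the count. Leaving out barcodes found in both libraries, cells of 20000 or more UMIs, or Scd1 was chosen after seeing the data. Of the 28 single ratios, those of Acat2, Tm7sf2, Elovl6 and Scd1 changed sign under at least 1 alternative.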
